A study of Mus musculus with 4 samples.

Results

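Pax7 summits inside introns of genes shorter than 200 kb made up 4752 of the 20579 peaks in the deposited Pax7 list, or 23.1%. A summit, the base of highest enrichment in a peak, was kept where it lay farther than 1 kb from the transcription start site (TSS) of every annotated transcript, in no exon, and inside at least 1 protein-coding gene, provided that every protein-coding gene over it was shorter than 200 kb. Of the 4752, 1420 lay in intron 1 of every protein-coding transcript over the summit (first introns), 2822 in intron 1 of none (later introns), 477 in intron 1 of some transcripts only (mixed rank), and 33 had no protein-coding transcript over them. Pax7 was mapped by ChIP-seq with 2 Pax7 ChIP and 2 input libraries from iPax7 cells, mouse embryonic stem cells that carry a doxycycline (Dox)-inducible Pax7 transgene as a single copy next to Hprt. The cells were differentiated as embryoid bodies, given 1 µg/ml Dox from day 3, sorted as PDGFRα+ FLK1- cells on day 5 and harvested on day 9, after 6 days of Dox. All 4 libraries came from cells under Dox and carried the transgene, so no state without induced Pax7 was measured. The authors merged the libraries of each kind before peaks were called, so the list gives neither a value nor a depth per library and a peak has no replicate error, and all intervals below are 95% intervals that cover counting error only.

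Pax7 is a transcription factor of muscle progenitors and satellite cells with a pair of DNA-binding domains. The paired domain recognises a paired box with the core GTCACG, and the homeodomain recognises TAAT or ATTA, alone next to the paired box or as an inverted pair bound by a dimer. Introns are a common place for enhancers, and the first intron, next to the promoter, often carries regulatory sequence, so first and later introns were described apart.

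The sequences under 3 of the 4 strongest first-intron summits, the 3 strongest later-intron summits and the strongest summit with a paired box joined to a homeobox show how varied these sites were. The second strongest first-intron window, at Mapk4, is not shown. Each is the plus strand of NCBIM37 (mm9) over the 101 bp centred on the summit. Capitals mark, on either strand, the paired-box core GTCACG, its variant GTCATG, the joined words ATTAGTCAC and ATTAGTCAT, and the homeodomain dimer. The dimer is the half-site TAAT, then 2 or 3 bases, then the half-site ATTA. The last pair of windows was added, after the values were seen, as the strongest first-intron and later-intron summits that hold the core.
Hs2st1 (first intron, chr3:144202243-144202343): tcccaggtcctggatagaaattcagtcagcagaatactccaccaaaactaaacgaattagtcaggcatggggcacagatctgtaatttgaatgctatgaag
Gab1 (first intron, chr8:83390578-83390678): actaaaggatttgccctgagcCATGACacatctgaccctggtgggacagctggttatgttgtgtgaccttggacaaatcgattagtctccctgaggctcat
Ssu72 (first intron, chr4:155082488-155082588): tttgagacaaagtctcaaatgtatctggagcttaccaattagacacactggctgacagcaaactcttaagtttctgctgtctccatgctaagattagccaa
Psmb2 (later intron, chr4:126384499-126384599): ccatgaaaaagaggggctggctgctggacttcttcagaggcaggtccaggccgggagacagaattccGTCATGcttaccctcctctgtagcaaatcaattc
Slc24a4 (later intron, chr12:103421618-103421718): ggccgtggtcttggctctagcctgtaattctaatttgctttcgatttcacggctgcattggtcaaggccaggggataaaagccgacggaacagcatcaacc
Crim1 (later intron, chr17:78725477-78725577): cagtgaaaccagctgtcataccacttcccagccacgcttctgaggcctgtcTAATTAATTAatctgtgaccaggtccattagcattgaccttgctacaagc
Fam118b and Srpr (mixed rank, chr9:35055098-35055198): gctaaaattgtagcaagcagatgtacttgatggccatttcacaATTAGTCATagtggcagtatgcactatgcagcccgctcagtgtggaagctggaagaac
Nfkb1 (first intron with the core, chr3:135336908-135337008): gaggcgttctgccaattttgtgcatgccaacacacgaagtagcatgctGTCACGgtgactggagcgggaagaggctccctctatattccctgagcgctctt
Anapc16 (later intron with the core, chr10:59458750-59458850): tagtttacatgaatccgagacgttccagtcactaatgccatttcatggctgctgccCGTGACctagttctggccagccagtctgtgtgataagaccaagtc
Of the first 6 windows, none held GTCACG. Gab1 and Psmb2 held GTCATG, which differs from the core in 1 letter, the T at position 5, 26.5 bp and 19.5 bp from the summit, and Crim1 held a homeodomain dimer 5.5 bp from it. The windows of Hs2st1, Ssu72 and Slc24a4 held none of these letters, which says nothing about other forms of the site. In Nfkb1 and Anapc16, the core was centred 0.5 bp and 8.5 bp from the summit.

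Hs2st1, which encodes a heparan sulfate O-sulfotransferase, had the strongest intronic summit, 27.3-fold over local background with a −log10 q of 172. It lay 30.9 kb from the start of the gene, in a first intron of 104 kb. Mapk4, which encodes an atypical MAP kinase, came second among first-intron summits with 22.0-fold enrichment. Gab1, a docking protein of receptor tyrosine kinases, followed with 21.9-fold enrichment, 13.8 kb from its start. Ssu72, a phosphatase of the RNA polymerase tail, had a 20.6-fold summit only 3.63 kb into the gene. The other first-intron summits of the highest 8 were at Nfkb1, an NF-kappaB subunit (18.9-fold), Hcn4, a pacemaker channel (18.9-fold), BC034090 (18.1-fold) and Scrn1 (17.6-fold). Among these 8, Nfkb1 and Hcn4 alone held GTCACG at the summit.

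No later-intron summit was as strong as that of Hs2st1. At each other place of the highest 8, the later-intron summit was stronger than the first-intron summit. The proteasome subunit gene Psmb2 had a 23.7-fold summit in an intron of 1.33 kb, the fourth of 5. The cation exchanger gene Slc24a4 had 23.2-fold enrichment in its second intron, and Crim1, whose product binds BMPs, had 22.7-fold enrichment in its seventh. Anapc16, a subunit of the anaphase-promoting complex, carried a 22.5-fold summit in a gene of 15.2 kb. Myo5a, an unconventional myosin, had 21.3-fold enrichment in intron 23 of 40. Zfp608, Ppfibp2 and Zc3h3 completed the highest 8 with 20.4-fold, 20.1-fold and 19.7-fold enrichment. Only Anapc16 held the core.

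The spread of strength was nearly the same in all classes. Fold enrichment of the 4752 summits ran from 2.40 to 27.3 with a median of 5.21 (5.12 to 5.23), and 7.13% reached 10-fold. The median was 5.06 (4.94 to 5.16) in first introns and 5.23 (5.17 to 5.29) in later introns, a difference of −0.17 (−0.30 to −0.05). Mixed-rank summits had a median of 5.17. In introns of genes of 200 kb or longer (long genes) the median was 5.27, and between genes it was 5.23. Width was also alike, with medians of 246 bp in first and 251 bp in later introns. On the 2 sides of the rule's limits, 263 summits in host genes of 180 to 200 kb had a median of 5.28-fold, against 5.23-fold for 252 summits in genes of 200 to 220 kb. The 56 summits from 1 to 1.1 kb from a TSS had a median of 5.19-fold, and the 120 from 0.9 to 1 kb had 4.89-fold.

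Per length of sequence, summits were denser in first than in later introns. First introns that met the rule spanned 123 Mb and held 11.6 summits per Mb (10.98 to 12.2), whereas later introns spanned 316 Mb and held 8.93 per Mb (8.60 to 9.27), a ratio of 1.30 (1.22 to 1.38). Mixed-rank introns held 12.9 per Mb (11.7 to 14.1). All introns of shorter genes together held 9.90 per Mb (9.62 to 10.2), introns of long genes 9.24 (8.94 to 9.55) and sequence between genes 5.45 (5.33 to 5.57). The densest class, within 1 kb of a TSS, held 31.6 per Mb.

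The gap between first and later introns varied with distance from a TSS, distance from an exon and intron length. Distance was taken to the nearest TSS of any annotated transcript, of the host or of another gene. From 1 to 2 kb from it, first introns held 14.4 summits per Mb (12.5 to 16.5) and later introns 7.38 (6.20 to 8.73). First introns were also denser, with intervals that did not overlap, in each bin from there to 50 kb, for example 10.1 (8.99 to 11.4) against 7.77 (7.08 to 8.51) at 5 to 10 kb. Beyond 50 kb the values were 10.3 (7.42 to 14.0) and 9.49 (8.45 to 10.6), with overlapping intervals. Split by the length of the intron, density in later introns climbed from 6.18 per Mb (5.55 to 6.87) in introns under 2 kb to 11.8 (10.5 to 13.3) in introns above 50 kb. In first introns it was 16.9 (10.5 to 25.8), from only 21 summits, in introns under 2 kb, 9.52 (7.94 to 11.3) at 5 to 10 kb and 11.7 (10.6 to 12.9) above 50 kb. Above 5 kb, the intervals for first and later introns of like length overlapped in every bin. Later introns were also poorer close to exons, with 6.58 summits per Mb (5.82 to 7.41) within 0.2 kb of an exon edge and 12.01 (11.1 to 12.96) beyond 5 kb. In first introns density beyond 5 kb was 11.1 (10.3 to 12.03), and between 0.5 and 1 kb it was 15.8 (13.0 to 19.1), against 7.56 (6.83 to 8.34) in later introns. The bins by distance from an exon were added after the intron-length values were seen.

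**Figure D1:**
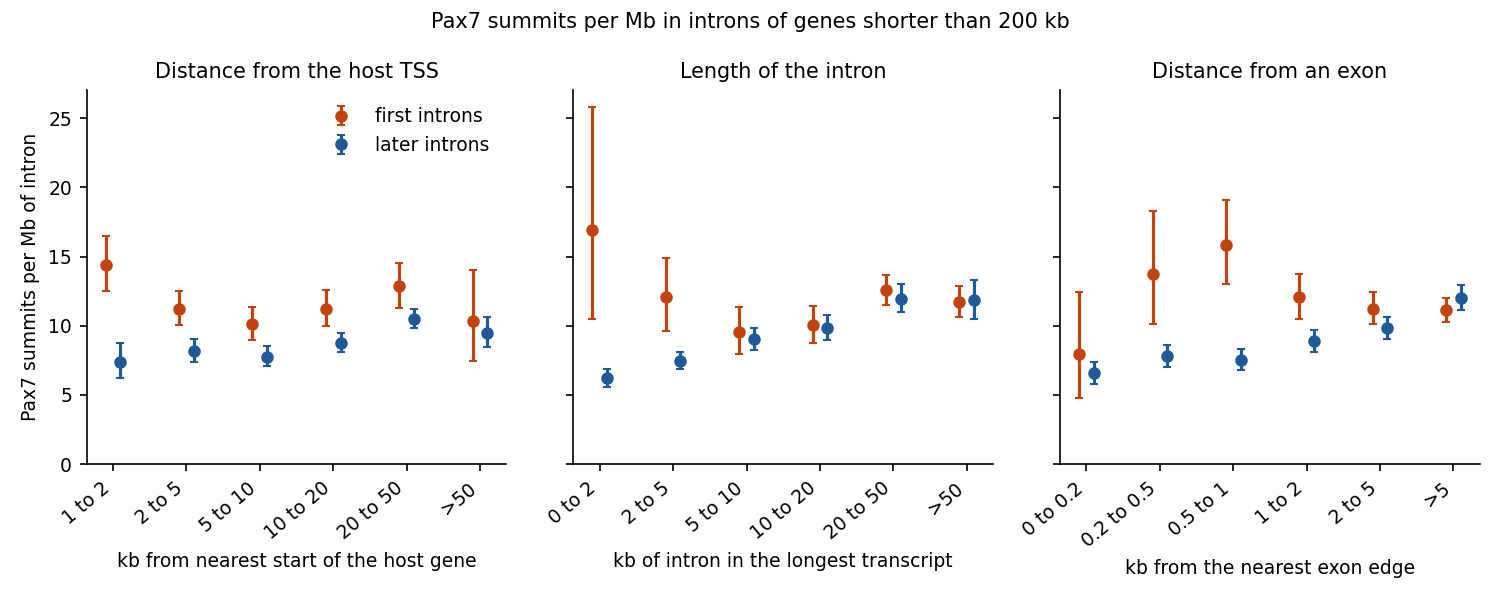
Pax7 summits per Mb (vertical axis) in first introns (orange) and later introns (blue) of genes shorter than 200 kb. The panels give distance from the nearest annotated TSS (left), length of the intron (middle) and distance from the nearest exon edge (right), all in kb. The left panel is labelled with the host gene, but the TSS of any annotated transcript was used. Bars are exact Poisson 95% intervals, and the classes stand apart at 1 to 2 kb from a TSS (14.4 against 7.38 per Mb) and at 0.5 to 1 kb from an exon (15.8 against 7.56) but overlap in introns above 50 kb (11.7 against 11.8).

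Within an intron, summits were spread almost evenly. Cut into 3 stretches of equal length, first introns held 5′ to 3′ 12.3, 10.8 and 11.6 summits per Mb, and later introns 9.04, 8.72 and 8.94. First-intron summits sat in introns with a median length of 31.2 kb, later-intron summits in introns of 9.01 kb, in host genes of 76.5 kb and 88.9 kb. The median later-intron summit was in intron 5, 44.1 kb from the start of its gene, and 20.6% of later-intron summits lay within 500 bp of an exon, against 4.05% in first introns. Per Mb, later introns were not richer there, with 6.58 summits within 0.2 kb of an exon edge and 7.78 at 0.2 to 0.5 kb, against 8.93 in all. First introns held 7.98 and 13.8 in these bins, against 11.6 in all. The nearest other Pax7 summit was a median of 15.9 kb away.

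The paired-box core was the 6-letter word most enriched at these summits over their flanks. GTCACG, searched on both strands within 50 bp of the summit, was present at 554 of the 4752 summits, 11.7% (10.8% to 12.6%). In flanks, windows of the same size placed 500 bp to the left and right of each summit, it was present in 1.38%, and in 101 bp tiles of all intron sequence that met the rule in 0.858%. The share was 12.7% in first introns and 11.5% in later introns, which did not differ beyond counting error (1.16 percentage points, −0.88 to 3.31). The core lay a median of 16 bp from the summit, 69.7% of cores were within 25 bp, and 17 summits had more than 1 core. Where a single core and a single host strand could be read, it was in the sense of the gene in 268 and antisense in 266, a sense share of 50.2% (46.0% to 54.4%).

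**Figure D2:**
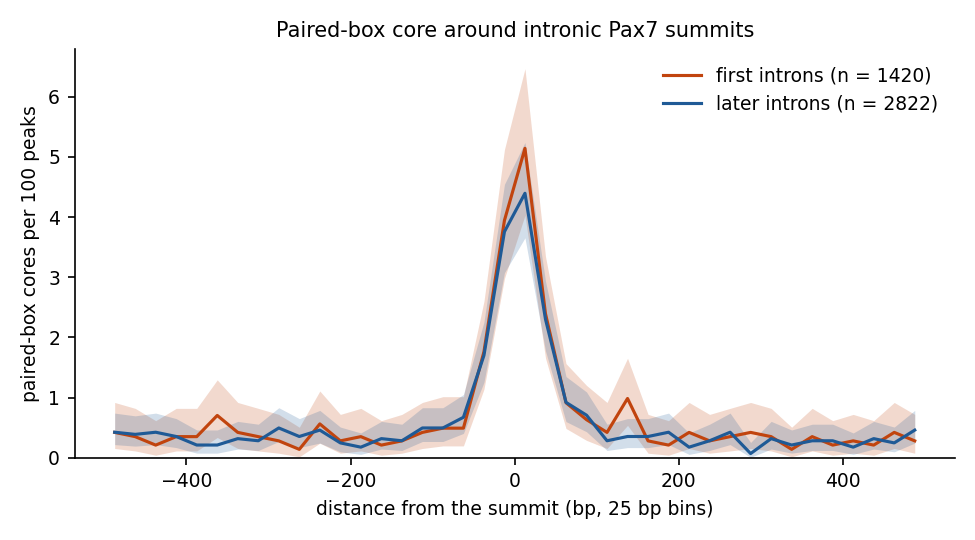
Paired-box cores per 100 peaks (vertical axis) against the distance from the summit in bp, in 25 bp bins, for first introns (orange, 1420 peaks) and later introns (blue, 2822 peaks), with exact Poisson 95% intervals as bands. In the bin from 0 to 25 bp there were 5.14 cores per 100 first-intron peaks and 4.39 per 100 later-intron peaks, the highest bin of each line.

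The letters next to the core were also skewed at the summit. Counting positions from 1 at the G of GTCACG, position 7 was C in 39.3% and G in 50.2% of 572 sites at summits, against 18.5% and 29.6% of 135 sites in the flanks. Position 8 was T in 52.4%, against 29.6%. The full words GTCACGCT and GTCACGGT were present at 2.46% and 3.32% of summits, against 0.0737% and 0.158% of flanks. They were chosen after the word counts were seen and spell the letters frequent at these same sites, so their excess is no separate result.

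A one-letter variant of the core was more frequent than the core itself. GTCATG, chosen after the word counts were seen, was present at 717 summits, 15.1% (14.1% to 16.1%), against 3.96% of flanks and 4.10% of tiles. With the other 2 bases at position 5, the words were close to their flanks: GTCAAG was present at 4.88% against 3.84%, and GTCAGG at 6.63% against 5.48%. GTCATG was followed by C or G in 79.5% of sites at summits and 46.5% in flanks. For the core these shares were 89.5% and 48.1%. GTCATGGT and GTCATGCT, also chosen after the word counts were seen, stood at 4.36% and 2.74% of summits, against 0.431% and 0.221% of flanks. The core or GTCATG was found at 1219 summits, 25.7% (24.4% to 26.9%), with 5.28% of flanks as the background. The share was 26.0% in first and 25.8% in later introns.

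Stronger summits held these letters more often. In 5 bins of equal number by fold enrichment, from lowest to highest, the core was present in 9.67%, 8.53%, 11.3%, 10.9% and 17.9%, whereas in the flanks it ranged from 1.10% to 1.68%. The highest bin, above 7.35-fold, exceeded each of the others beyond their intervals, and the lower 4 overlapped. It was 20.1% (15.7% to 25.3%) in first introns and 18.5% (15.6% to 21.9%) in later introns. The core or GTCATG rose from 20.6% (18.2% to 23.3%) in the lowest bin to 34.8% (31.8% to 37.9%) in the highest. Median fold enrichment was 5.58 (5.40 to 5.88) with the core and 5.12 (5.06 to 5.21) without it, and 12.8% against 6.38% of summits reached 10-fold.

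**Figure D3:**
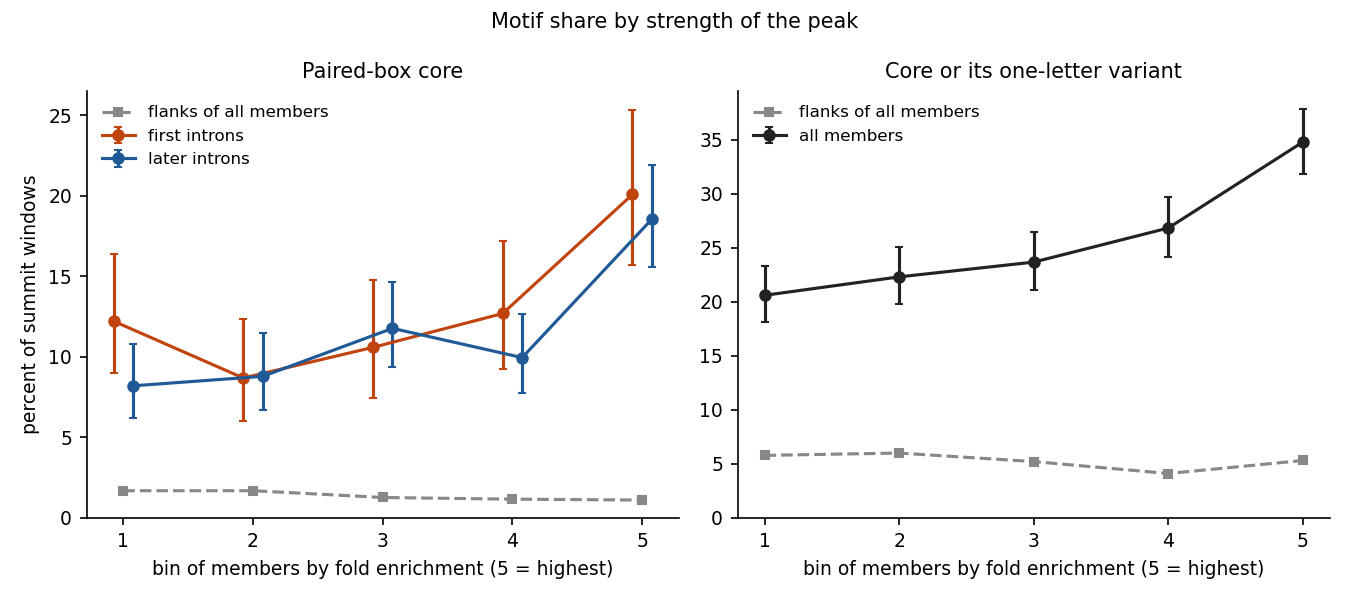
Percent of 101 bp summit windows with the paired-box core (left) or with the core or its one-letter variant (right), by bin of the summits in fold enrichment (bin 5 is the highest), with Wilson 95% intervals and, in grey, the share in the flanks. In the highest bin the core was present in 20.1% of first-intron and 18.5% of later-intron windows, and either form in 34.8% of all windows.

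Homeodomain sequence was rarer. ATTAGTCAC or ATTAGTCAT, a homeobox joined to a paired box, was present at 123 summits (2.59%), against 0.116% of flanks and 0.135% of tiles. The 3 strongest were at Fam118b and Srpr, overlapping genes on opposite strands (15.0-fold), at the first intron of Rbm20 (15.0-fold) and in a later intron of Hbs1l (14.9-fold). The dimers with 2 and 3 bases between TAAT and ATTA were present at 0.863% and 0.800% of summits, against 0.284% and 0.305% of flanks. The 41 summits with the dimer 2 bases apart had a median of 6.71-fold (5.85 to 7.68) against 5.19-fold for the rest, and Crim1 and Zc3h3 were among them. The 38 with the dimer 3 bases apart did not stand out, with a median of 5.33-fold (4.80 to 6.96) against 5.21-fold for the rest. At least 1 of the motifs for the paired domain or the homeodomain chosen at the outset was found at 15.5% of summits, against 2.05% of flanks. With GTCATG added, the share was 28.4% (27.1% to 29.7%), against 5.93% of flanks, so most windows held none of these exact letters. At summits in introns of long genes these shares were 12.6% and 25.8%.

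The E-box CAGCTG, a form bound by MyoD-family factors and other bHLH proteins, was present at 853 summits, 18.0% (16.9% to 19.1%), against 4.70% of flanks and 4.17% of tiles. It was as frequent in first introns (17.7%) as in later ones (18.4%), with a difference of −0.75 percentage points (−3.15 to 1.74). Summits with it were 5.27-fold at the median and those without it 5.16-fold (5.13 to 5.41 and 5.07 to 5.23). Of the summits with the core, 17.5% also held CAGCTG, close to the 18.0% of all summits. CATTCC, the TEAD word, was present at 11.05% against 5.01% of flanks, and TGANTCA, the AP-1 site, at 7.24% against 3.50%. TGTGGT, a RUNX word, was at 10.7% against 8.22%, TCAGGTT, a MEF3 word, at 1.16% against 1.55%, and the control GCACTG at 7.81% against 6.17%.

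Introns of long genes differed in the core, in CAGCTG and in the dimer 3 bases apart. The core was present at 8.56% of 3539 summits there, 3.10 percentage points fewer (1.79 to 4.39) than in shorter genes, and between genes at 8.70%. The flanks differed in the same direction, 0.961% against 1.38%, and the ratio of summit to flank was 8.91 in long genes and 8.46 in shorter ones. GC content at the summit had a median of 44.6% in long genes and 45.5% in shorter genes. Its part in the difference was not tested. CAGCTG was present at 15.9% of summits in long genes, against 18.0% in shorter genes, a difference of 2.10 percentage points (0.46 to 3.71). The dimer 3 bases apart went the other way, at 1.30% in long and 0.80% in shorter genes (−0.50 percentage points, −0.98 to −0.06). GTCATG was as frequent in long genes, at 14.8%, with a difference of 0.25 percentage points (−1.31 to 1.80). Within 1 kb of a TSS the core was present at 18.6% of summits, but ATTAGTCAC or ATTAGTCAT at only 0.597% and CAGCTG at 9.34%. The flanks there held the core more often too, at 2.39%, and the ratio of summit to flank was 7.79.

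The summits fell in 2804 host genes, 16.2% of the 17274 protein-coding genes shorter than 200 kb that offered sequence meeting the rule. Of these hosts, 1749 had 1 summit, 1055 had at least 2 and 117 had at least 5. The last group held 707 of the summits, and 54 summits lay in more than 1 host. Host genes were longer, with a median of 55.4 kb of sequence meeting the rule against 10.7 kb in other genes, and the share of hosts went from 0.933% of genes with under 2 kb of such sequence to 49.0% of those with more than 50 kb.

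Host genes also had Pax7 at their promoter more often. Of all 17274 genes, 16% had a Pax7 summit within 1 kb of a TSS of their own, a readout the rule did not use for these summits. The share was 23.4% (21.9% to 25.0%) among hosts and 14.6% (14.0% to 15.2%) among the rest, a difference of 8.86 percentage points (7.22 to 10.6). It held at like lengths of intron sequence. With 10 to 20 kb the shares were 25.7% and 16.4%, with 20 to 50 kb 24.9% and 16.2%, and with more than 50 kb 22.7% and 13.8%. With 5 to 10 kb, and likewise with 2 to 5 kb, the interval of the difference included 0 (2.13 percentage points, −3.95 to 10.2, and 7.87, −0.065 to 19.1).

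The genes with the most summits included regulators of splicing, Wnt signalling and satellite cells. Mbnl2, a muscleblind splicing regulator, held 11 summits from 3.46-fold to 17.7-fold over 104 kb, of which 3 had the core. Tcf7l1, which mainly represses Wnt targets, also held 11, all in introns of mixed rank, from 2.62-fold to 8.19-fold, and its close relative Tcf7l2 held 10 in later introns from 3.84-fold to 10.2-fold. The paralogues were thus close in number, at 73.1 and 56.7 summits per Mb. Rbm20, which directs titin splicing, had all of its 10 summits in the first intron, at 3.12-fold to 16.6-fold, and Megf10, a receptor known from satellite cells, had 4 in the first and 6 in later introns, at 3.20-fold to 15.5-fold. Ddc, which encodes DOPA decarboxylase, held 10 summits in a gene of 83.9 kb, 150 per Mb, and none had the core. The lipid scramblase gene Ano6 held 9 from 3.70-fold to 6.60-fold, and the Src-family kinase gene Fyn held 9 from 3.93-fold to 14.0-fold. Macrod1, Mboat1, Tbc1d1 and Tbck tied with Ano6 and Fyn at 9 summits. Of all these genes, Mbnl2, Fyn and Tbc1d1 also had a Pax7 summit at a TSS of their own.

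In 6 gene lists that fit muscle progenitors, the share of hosts ran from 31.7% to 57.4%, and in 2 contrast lists it was 7.41% and 0%, beside 16.2% of all genes. For each list, the share of hosts was set beside the mean share among all genes with as much intron sequence, a comparison added after the lists had been counted. It was higher in all 6, and in 4 of them the interval lay above that value. The lists were chosen with earlier results known, so these counts are a description. Of 37 myogenic and paraxial mesoderm transcription factor genes, 15 were hosts, 40.5% (26.3% to 56.5%), against 21.6% at the same lengths, with 22.7 summits per Mb (15.7 to 31.7). Zeb2, a zinc finger repressor, had 7 at 13.4, 6.80, 5.04, 4.88, 4.69, 4.53 and 4.48-fold. Eya2, a cofactor of homeodomain proteins, had 5 at 9.45, 8.12, 6.24, 5.76 and 5.68-fold, and its paralogue Eya1 had 3 at 10.5, 6.40 and 4.89-fold. Among the founding myogenic regulators, named after their values were seen, Pax3 had 1 summit of 8.32-fold in a later intron, and Myf5 1 of 6.24-fold in its first intron, whereas Myod1, Myog and Myf6 had none. Short genes leave little room for such a summit: Myf5 offered 0.847 kb of sequence meeting the rule, against 88.9 kb in Pax3. Of the 48 listed genes, 9 were long and 37 offered such sequence, so the lack of summits in Myod1, Myog and Myf6 is not a contrast.

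Receptor tyrosine kinase, BMP and TGF-beta pathway genes had the highest share. Of 47 genes, 27 were hosts, 57.4% (43.3% to 70.5%), against 31.4% at the same lengths, with 21.9 summits per Mb (16.7 to 28.3). Met, the receptor of hepatocyte growth factor, held 4 summits of 13.4, 11.8, 5.76 and 4.97-fold, the strongest with the core. Gab1, the docking protein that Met signals through, held 7, of 21.9, 11.3, 9.10, 8.83, 4.44, 4.01 and 3.29-fold. A pair of these 7, at 8.83-fold and 4.44-fold, held ATTAGTCAC or ATTAGTCAT. Tgfbr3, a TGF-beta coreceptor, held 5, led by one of 19.6-fold in a later intron.

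In the Notch, Wnt and Hippo list, 17 of 45 genes were hosts, 37.8% (25.1% to 52.4%), against 28.6% at the same lengths, so the interval reached the value for all genes. The list held 21.4 summits per Mb (16.0 to 28.1). Of its 52 summits, 11 were in Tcf7l1 and 10 in Tcf7l2, its richest genes, so this density rests in large part on these paralogues. Its strongest summits were at the Wnt coreceptor gene Lrp5 (13.2-fold), at Daam1, which acts between Wnt receptors and actin (10.7-fold), and at Tcf7l2 (10.2-fold).

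Extracellular matrix, integrin and heparan sulfate genes had 25 hosts of 50, 50.0% (36.6% to 63.4%), against 35.4%. They held 16.1 summits per Mb (12.1 to 21.2). They were led by Hs2st1, Lamc1, a laminin chain (11.2-fold, with a paired box joined to a homeobox), and Itgb1, an integrin chain (10.9-fold), and Col4a2, a basement membrane collagen, had the most summits, 7. Sarcomere and dystrophin complex genes had 13 hosts of 41, 31.7% (19.6% to 47.0%), against 20.0%. They held 17.1 summits per Mb (10.7 to 26.0). Their strongest summit (13.3-fold) was where Tnnc1, the slow troponin C gene, and Nisch overlap on opposite strands. It counts for Tnnc1 under an annotation that gives this gene 41.9 kb. The next were in Nrap (8.12-fold) and in Actn2, an alpha-actinin gene (7.67-fold), and Mybpc1 and Nrap had the most summits, 3 each.

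Chromatin regulators had 23 hosts of 51, 45.1% (32.3% to 58.6%), against 32.0%. The remodeller genes Chd7 (15.5-fold), Smarca4 (14.7-fold) and Arid1a (12.3-fold) held the strongest, and Myst4, an acetyltransferase gene, held the most, 5. The contrast lists held genes of other tissues or of every cell. Of 54 hepatocyte genes, 4 were hosts, 7.41% (2.92% to 17.6%), against 13.3%, with 6.12 summits per Mb (2.46 to 12.6). They included Ass1, of the urea cycle (11.1-fold and 8.54-fold), Cyp7a1, the rate-limiting enzyme of bile acid synthesis (7.99-fold), and the bile salt exporter gene Abcb11, which had the most summits, 3. Of 31 ribosomal protein genes, none was a host, which allows a share of up to 11.03%, and they offer little intron sequence, with 2.25% hosts among all genes of like length. The ribosomal list was not free of Pax7. In it, 15 genes (48.4%) had a Pax7 summit within 1 kb of a TSS of their own, against 16.0% of all genes and 0% of the hepatocyte genes. A peak inside a gene does not show that the gene is its target.

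**Figure D4:**
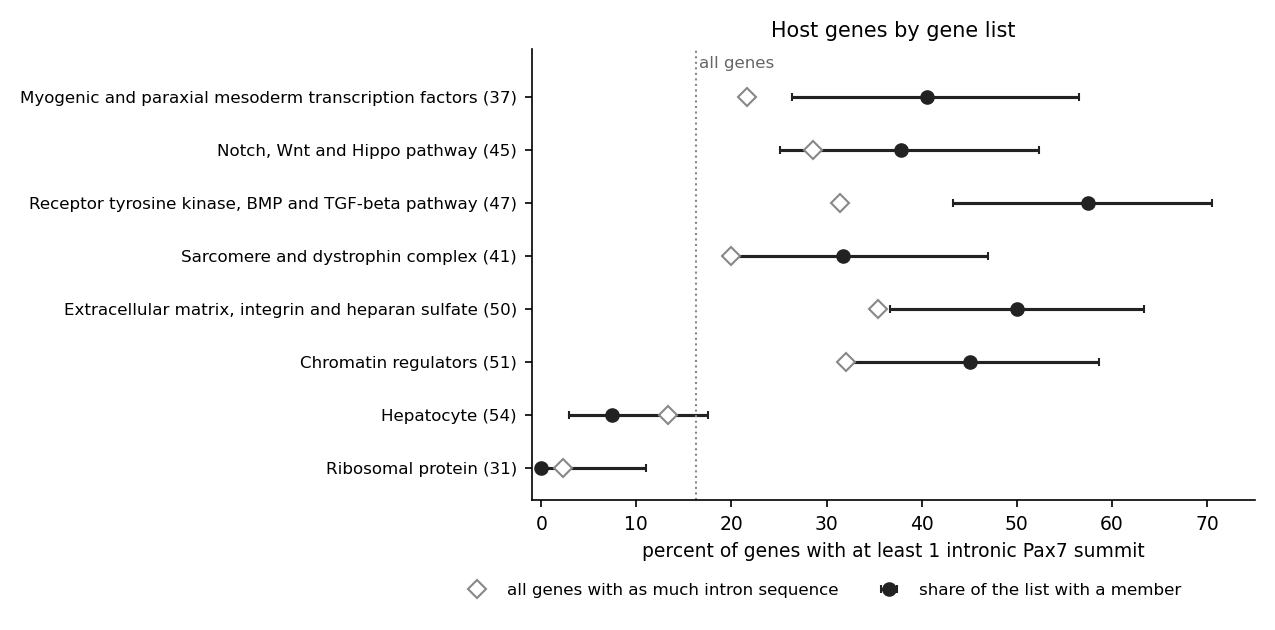
Percent of genes with at least 1 intronic Pax7 summit (horizontal axis) in 8 gene lists, with the number of genes tested in brackets, as points with Wilson 95% intervals. Open diamonds give the mean share among all genes with as much intron sequence and the dotted line the share of all genes, 16.2%, and the receptor tyrosine kinase, BMP and TGF-beta list lies farthest to the right, at 57.4% against 31.4%.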

How the data were processed

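Pax7 ChIP-seq in iPax7 cells was analysed from the deposited list of narrow peaks. Per the authors, reads were mapped to mm9 (bowtie2), multiply mapped reads and Picard-marked duplicates were discarded, libraries of a kind were pooled, and MACS2 compared pooled ChIP with pooled input at a q cut-off of 0.01. The fold enrichment of each peak, a ratio of ChIP signal to local background at the summit, was computed by the authors. The deposited list also gives a −log10 q, a score made from it, and the position of the summit. These values served to describe and rank peaks. They rest on pooled reads, so strength can reflect depth and local background as well as binding. Columns of single samples: 0.

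Summits were classed base by base with GENCODE vM1 on NCBIM37. Densities are summits per Mb of sequenced bases in the same class, on chromosomes 1 to 19 and X. Wilson, Newcombe, exact Poisson and order-statistic 95% intervals cover counting error only, and no test was run. They treat peaks as independent, although neighbouring peaks share a gene. Scripts were tested on simulated data. The members, gene lists and motifs were chosen with earlier results of these data known. Named were the 8 strongest first-intron and later-intron summits, the 8 genes with the most summits (ties at 9 summits taken in order of name), the 3 strongest summits and the richest gene of each list, and the 3 strongest summits with a paired box joined to a homeobox. Of 56 chromatin genes 55 matched the annotation, directly or by an older symbol. All genes of the other lists matched. A planned gene list is not reported here. Alternatives were stricter peaks, merged peaks, other TSS distances and sets, a shorter gene limit, the longest transcript only, other motif windows and 1 summit per host gene. The scripts ran in Python 3.11.15 with scipy 1.17.1, pandas 2.3.3, numpy 2.4.6 and, for figures, matplotlib 3.10.9.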

Additional observations from a re-analysis of the deposited data

How the results depend on the processing

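The list was called on merged libraries, so leaving out a replicate could not be done. No paired analysis was possible because the deposited list holds no value per replicate. The 4752 summits became 2580 with a fold enrichment of at least 5 and 2727 with a gene limit of 100 kb, and other alternatives kept them within 1.5 times. With at least 5-fold enrichment the first-intron share was 28.3%, density 5.95 per Mb in first and 4.97 in later introns, their ratio 1.20 (1.10 to 1.31), the core share 13.7% and the host share 10.7%. Where −log10 q had to reach 5, the densities were 10.7 and 8.29 per Mb and the host share 15.5%. The first-intron share was 27.8% at 2 kb from every TSS, 25.2% at 5 kb and 32.4% with the longest transcript only, where later introns held 9.29 per Mb. The core share was 7.72% within 25 bp, 14.2% within 100 bp and 12.7% with 1 summit per host gene. The ratio of densities and the difference in core share from long genes kept their direction under all alternatives run on them, the former from 1.20 to 1.29, the latter from 1.99 to 3.85 percentage points. The list gives no depth and no value per replicate, which limits every value.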

Other observations

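Other E-box words, searched after the word counts were seen, had a lower ratio of summit to flank than CAGCTG (3.82) at the intronic summits of shorter genes. The highest was 1.84, for CAATTG, present at 2.19% of summits (1.81% to 2.64%) against 1.19% of flanks. It was followed by CAACTG, at 7.58% of summits against 4.69% of flanks, CAAATG at 9.53% against 7.32%, and CAGATG at 9.32% against 8.11%. CACCTG was present at 4.44% of summits (3.89% to 5.06%) against 6.81% of flanks, and CATATG at 1.66% against 2.59%. CAGGTA, which shares CAGGT with the E-box CAGGTG bound by Zeb and Snail repressors, was among the words with the lowest ratio of summit to flank. It was present at 57 summits, 1.20% (0.927% to 1.55%), against 4.63% of flanks and 4.63% of tiles. The share was 1.34% in first introns, 1.17% in later introns and 1.02% in long-gene introns. Words of alternating A and T were also scarce, with ATATAT at 0.673% of summits against 3.84% of flanks.

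Intronic summits were sparse on chromosome X. Introns of shorter genes there held 59 summits, 2.95 per Mb (2.24 to 3.80), whereas the 19 autosomes held 10.2 per Mb (9.91 to 10.5) together and from 8.19 to 12.6 each. The 59 were 5.60-fold at the median (5.23 to 6.10) and the autosomal summits 5.19-fold (5.10 to 5.23). The other classes went the same way, with 2.19 per Mb on X and 9.62 on autosomes in introns of long genes, and 0.802 and 5.82 between genes. The number of X chromosomes in the iPax7 line is not given in the labels, and its part in these densities was not tested.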
